A study of Homo sapiens with 6 samples.

Results

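The respiratory chain moves electrons from NADH and succinate to oxygen through complexes I to IV of the inner mitochondrial membrane, and ATP synthase uses the proton gradient they build to make ATP. A small set of core proteins is encoded by mitochondrial DNA, whereas most subunits come from nuclear genes and are imported. Hepatocytes are rich in mitochondria, and the HepG2 line can use both oxidative phosphorylation and glycolysis. The genes described here are the protein-coding genes whose symbols start with NDUF, UQCR, COX4 to COX8 or ATP5, together with SDHA, SDHB, SDHC, SDHD and CYC1. They were 100 of 52408 genes in the count table, of which 19258 were protein-coding, and membership follows from symbol and class alone. The choice of the respiratory chain as a group was made with earlier results of these data known.

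RNA was sequenced from HepG2 cells, an established line from a human liver tumour. Ellagic acid (EA), a polyphenol of fruits and nuts, was given at 50 µM for 24 h, and the comparison group received an equal volume of the solvent DMSO. Each group had 3 libraries, the labels do not say whether they came from separate cultures, and both groups rest on 1 cell line. The comparison asks which genes and pathways differ in these tumour cells after EA.

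Libraries held 15738089 to 19202292 assigned reads with EA and 22987425 to 25973621 with DMSO. The 6 hepatocyte genes ALB, AFP, APOB, TTR, SERPINA1 and TF were read in all libraries, and each was lower in every EA library than in every DMSO library. Scaled by library size alone, APOB had 2502 to 3791 CPM with EA and 28496 to 30569 CPM with DMSO, and ALB 3452 to 3871 CPM with EA and 7906 to 8840 CPM with DMSO. Of 5 markers of other cell types, PTPRC and CD3E of blood cells and DCN of fibroblasts had 0 reads. The fibroblast collagen gene COL1A1 had 1, 0 and 1 reads with EA, against 14, 15 and 28 reads with DMSO, and the endothelial gene VWF had 57, 52 and 59 reads with EA, against 32, 21 and 27 reads with DMSO. The part of these markers in the results was not tested. EA replicate 3 stood apart from the other EA libraries: its counts differed from theirs by a mean chi-square of 16.9 and 19.7 per gene, against 4.72 between EA replicates 1 and 2. Most genes in the table differed between the groups. Of 15648 genes that passed the filter on low counts, 81.0% were called at an adjusted p under 0.05 (edgeR quasi-likelihood), 40.5% as lower and 40.5% as higher with EA. Levels are given as CPM, the reads of a gene scaled to the size of its library. A level is thus relative to all other RNA of the library, and fewer cells of a kind and less RNA per cell cannot be told apart.

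Respiratory chain and ATP synthase genes were mostly lower with EA in every complex. Of the 100 genes, 93 could be tested. Among these, 78 (83.9%) fell, against 40.5% of all tested genes, 3 rose and 12 were not called. A fall to 50% or less of the DMSO level was called for 50 of the 93, against 21.5% of all tested genes. The median log2 fold change of EA over DMSO was -1.05, compared with 0.00 over all tested genes and -0.21 over the 8818 protein-coding genes with at least 10 CPM in DMSO. The 3 EA libraries lay entirely on one side of the 3 DMSO libraries for 83 of the 93, and the same held for 82.9% of all tested genes (41.5% with EA below DMSO). Without EA replicate 3, 80 genes were lower and 9 were higher, and the median was -1.09.

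The summed level of all 100 genes was 3444, 3752 and 3563 CPM in the EA libraries, against 7988, 7744 and 7464 CPM in the DMSO libraries. The groups did not overlap, and the EA mean of 3587 ± 155 CPM was 46.4% of the DMSO mean of 7732 ± 262 CPM (SD, n = 3 each). Their share of all assigned reads was 0.351% to 0.375% with EA and 0.744% to 0.790% with DMSO. Most of the genes that did not fall had few reads. Of 80 genes with at least 10 CPM in DMSO, 75 (93.8%) fell, 5 were not called and 0 rose. Of the 8818 protein-coding genes at this level, 50.8% were called lower and 35.2% higher. The cut uses the DMSO level alone, so genes that rise with EA are more likely to lie under it. The 20 genes under 10 CPM held 7 that could not be tested, 3 that fell, 3 that rose and 7 that were not called.

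**Figure D1:**
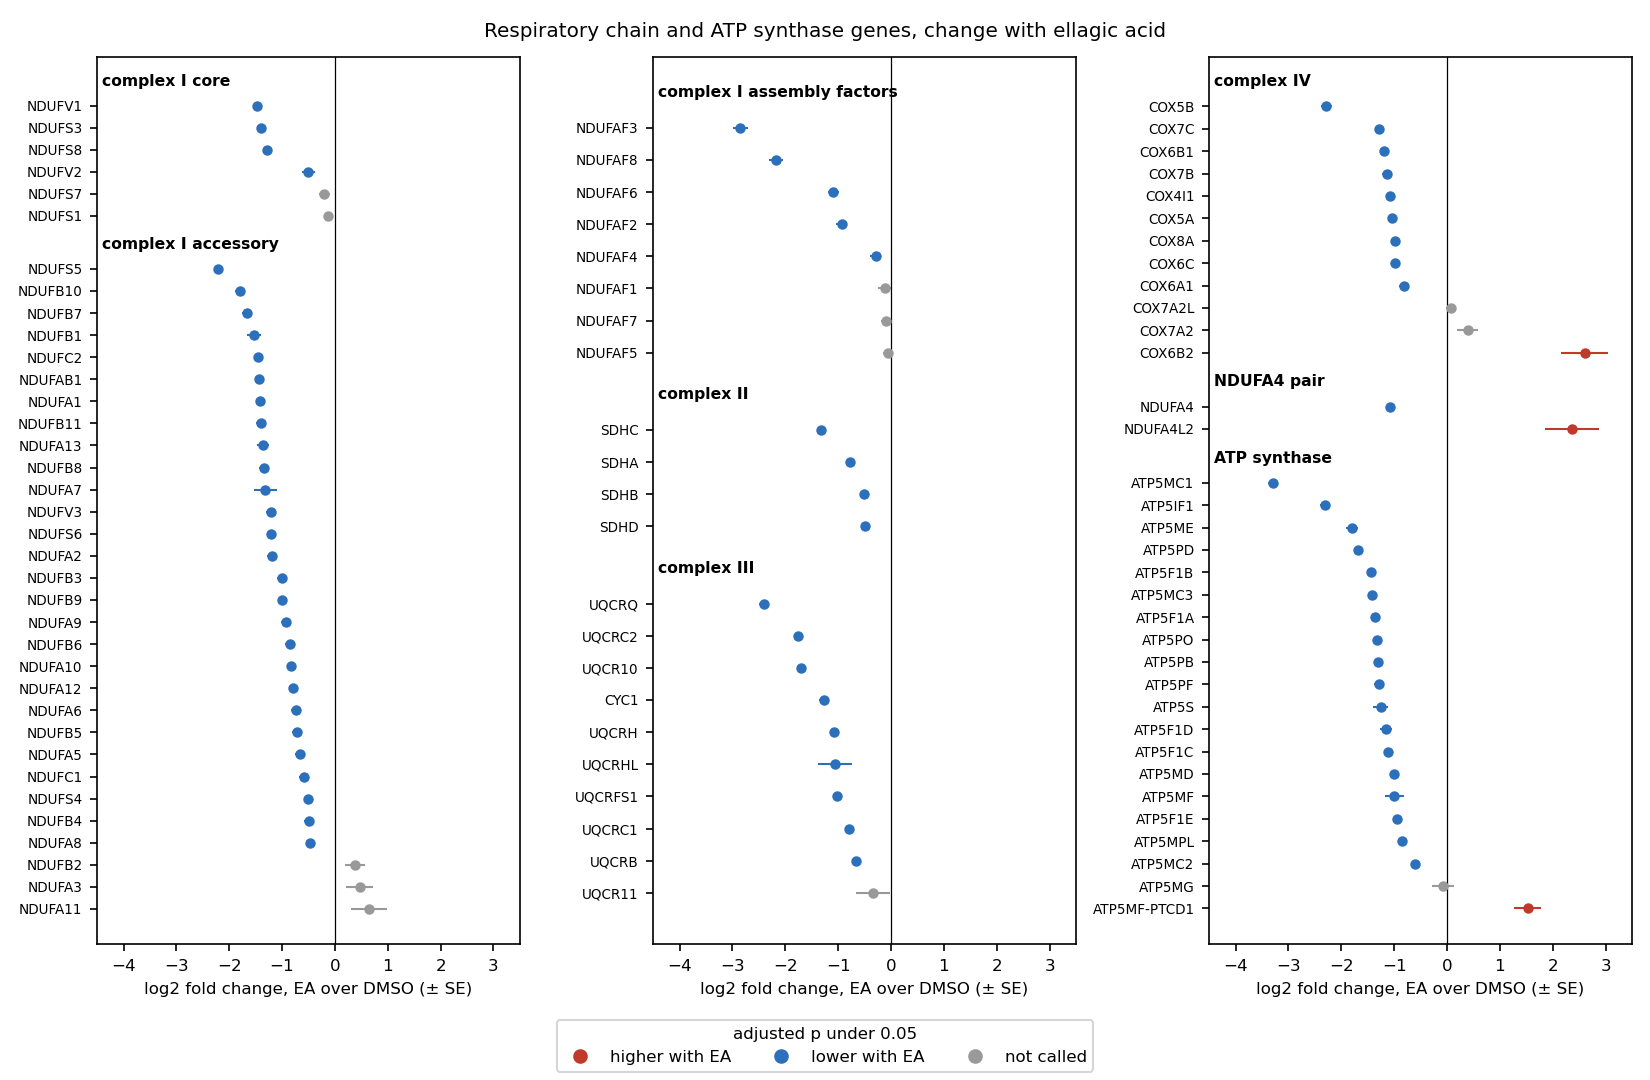
Log2 fold change of EA over DMSO (x axis) with its SE for 92 of the 93 tested genes, listed by complex; blue marks genes called lower, red higher and grey not called at an adjusted p of 0.05. Nearly all points lie left of 0, with ATP5MC1 farthest left at -3.29, and the 3 red points are COX6B2, NDUFA4L2 and ATP5MF-PTCD1.

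Complex I, the NADH dehydrogenase that feeds electrons into ubiquinone, has 7 nuclear core subunits that carry the flavin and iron-sulfur centres. Of these, 5 fell and 2 were not called. NDUFV1 (ENSG00000167792), which binds NADH and the flavin, had 32.6, 33.2 and 35.5 CPM with EA, against 96.9, 96.7 and 87.6 CPM with DMSO. Every EA library was far below every DMSO library, and the log2 fold change was -1.47 (SE 0.08, adjusted p = 6.98e-11). NDUFS3 and NDUFS8, subunits of the arm that leads electrons to ubiquinone, had log2 fold changes of -1.39 (SE 0.09) and -1.28 (SE 0.09). NDUFV2, which holds an iron-sulfur centre beside NDUFV1, was also lower, at -0.50.

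NDUFS1 (ENSG00000023228), the largest core subunit and a carrier of iron-sulfur clusters, was not called. It had 222, 229 and 256 CPM with EA, against 264, 254 and 257 CPM with DMSO. EA replicate 3 reached the DMSO range, so the groups overlapped, and the log2 fold change was -0.13 (95% interval -0.26 to 0.00, adjusted p = 0.0866). NDUFS7, which holds the cluster next to the ubiquinone site, was not called either at -0.20 (adjusted p = 0.0852). Without EA replicate 3 both were called lower, at -0.22 for NDUFS1 (adjusted p = 0.000402) and -0.27 for NDUFS7 (adjusted p = 0.0146). With NDUFS1 included, the summed core level was 386 ± 17.6 CPM with EA and 585 ± 11.97 CPM with DMSO, which is 66.0% of DMSO.

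The 31 accessory subunits of complex I surround the core and stabilise it. Among 30 that were tested, 27 fell and 3 were not called, and the median log2 fold change was -0.998. NDUFS5 (ENSG00000168653), a small subunit on the side of the intermembrane space, fell furthest. It had 21.0, 25.4 and 24.7 CPM with EA, against 112, 113 and 105 CPM with DMSO, a log2 fold change of -2.21 (SE 0.08, adjusted p = 2.28e-12). The groups were separated by a wide gap. NDUFC2, a subunit of the membrane arm, averaged 41.3 ± 3.17 CPM with EA and 113 ± 2.08 CPM with DMSO. NDUFAB1, the mitochondrial acyl carrier protein that also serves fatty acid synthesis, averaged 50.9 ± 4.16 CPM with EA and 138 ± 4.65 CPM with DMSO. Their log2 fold changes were -1.46 and -1.44, and NDUFB10, NDUFB7 and NDUFB1 stood between these and NDUFS5, at -1.79, -1.66 and -1.53. At the other end, NDUFA8, NDUFB4 and NDUFS4 fell by 0.46, 0.50 and 0.51 on the log2 scale.

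The 3 accessory genes that were not called had few reads. NDUFB2 averaged 4.56 ± 1.204 CPM with EA and 3.49 ± 0.23 CPM with DMSO, NDUFA3 2.68 ± 0.97 CPM with EA and 1.92 ± 0.34 CPM with DMSO, and NDUFA11 0.95 ± 0.18 CPM with EA and 0.60 ± 0.20 CPM with DMSO. Without EA replicate 3 all 3 were called higher, at log2 fold changes of 0.53, 0.60 and 0.77. In the GENCODE annotation 35.9% of the exon bases of NDUFB2 lie within exons of other genes, against 6.34% for NDUFA3 and 12.1% for NDUFA11. Among accessory genes that fell, this share ran from 0.0%, as for NDUFS5, to 48.5% for NDUFB8. The part of exon overlap in these results was not tested. NDUFC2-KCTD14, a read-through transcript of neighbouring genes, had 1 read with EA and 2 with DMSO and was not tested.

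Complex I assembly factors, named NDUFAF, help to build the enzyme and are not part of the finished complex. Of 8, 5 fell and 3 were not called, and the median log2 fold change was -0.61. NDUFAF3 (ENSG00000178057), which acts early in building the arm that reaches ubiquinone, had 2.43, 2.33 and 2.96 CPM with EA, against 18.7, 20.1 and 17.1 CPM with DMSO. The EA libraries were at 13.8% of the DMSO level, with a log2 fold change of -2.85 (SE 0.14, adjusted p = 4.16e-11). NDUFAF4, which acts together with NDUFAF3, moved far less, at -0.29 (adjusted p = 0.0110). That call was lost with thinned counts, after correction for GC content and length, and with a minimum fold of 1.2.

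NDUFAF8, a partner that stabilises NDUFAF5, had 4.17, 3.87 and 4.65 CPM with EA, against 20.2, 20.8 and 16.4 CPM with DMSO. Its log2 fold change was -2.18 (SE 0.14, adjusted p = 7.22e-10). NDUFAF5, which hydroxylates an arginine of NDUFS7, had 24.3, 19.6 and 25.5 CPM with EA, against 23.9, 23.9 and 24.0 CPM with DMSO. The groups overlapped and the log2 fold change of -0.05 was not called (adjusted p = 0.630). NDUFAF7, a methyltransferase of complex I assembly, and NDUFAF1, which helps to build the membrane arm, were not called at -0.10 and -0.11. NDUFAF6 and NDUFAF2 were lower at -1.09 and -0.93. The 8 factors summed to 103 ± 2.38 CPM with EA and 163 ± 2.15 CPM with DMSO.

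Complex II, succinate dehydrogenase, links the citric acid cycle to ubiquinone and is encoded by nuclear genes alone. All 4 subunits fell, with a median log2 fold change of -0.65 and a summed level at 56.9% of DMSO. SDHC (ENSG00000143252), a membrane anchor, had 38.2, 46.8 and 41.8 CPM with EA, against 109, 105 and 104 CPM with DMSO, a log2 fold change of -1.33 (SE 0.08, adjusted p = 4.14e-10). SDHA, the flavoprotein, had 132, 138 and 128 CPM with EA, against 230, 239 and 214 CPM with DMSO. SDHB, the iron-sulfur subunit, had 33.5, 35.1 and 32.9 CPM with EA, against 51.3, 46.0 and 48.0 CPM with DMSO. None of these overlapped between groups, and the log2 fold changes were -0.78 for SDHA and -0.52 for SDHB. SDHD, the other anchor, fell by 0.49 on the log2 scale, so the 2 anchors of the same enzyme differed in size of change. SDHA has near-copies in the genome: pseudogenes named after it held 28.1% of the reads of SDHA and its copies together with EA, and 18.1% with DMSO.

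Complex III passes electrons from ubiquinol to cytochrome c. Of its 10 nuclear genes, 9 fell and 1 was not called, the median log2 fold change was -1.07, and the summed level was 540 ± 31.1 CPM with EA and 1303 ± 33.5 CPM with DMSO. UQCRC2 (ENSG00000140740), a core protein on the matrix side, had 152, 160 and 150 CPM with EA, against 542, 501 and 513 CPM with DMSO, a log2 fold change of -1.75 (SE 0.07, adjusted p = 2.18e-12). Its partner UQCRC1 averaged 153 ± 11.8 CPM with EA and 263 ± 11.2 CPM with DMSO, a log2 fold change of -0.79. Per kilobase of annotated exon, UQCRC2 stood at 29.5 CPM with EA and 99.4 CPM with DMSO, and UQCRC1 at 47.2 CPM with EA and 81.3 CPM with DMSO. On this scale, which depends on the annotated length, UQCRC2 was the lower of the 2 with EA and the higher with DMSO.

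UQCRQ (ENSG00000164405), a small membrane subunit, fell furthest in complex III. It had 9.71, 8.42 and 8.09 CPM with EA, against 47.6, 48.8 and 41.8 CPM with DMSO, a log2 fold change of -2.40 (SE 0.10, adjusted p = 9.38e-12). UQCR10, another small subunit, followed at -1.69. The subunits that carry electrons were lower too, cytochrome c1 (CYC1) by 1.26 and the Rieske iron-sulfur protein (UQCRFS1) by 1.03 on the log2 scale. UQCRHL at -1.06 is uncertain, since it is a near-copy of UQCRH, had at most 1.13 CPM in any library and was not called by DESeq2 (adjusted p = 0.0554). UQCR11 was not called and averaged 0.80 ± 0.27 CPM with EA and 1.03 ± 0.23 CPM with DMSO.

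Complex IV, cytochrome c oxidase, reduces oxygen to water. Its catalytic core is mitochondrially encoded, and the nuclear subunits around it include tissue-specific isoforms. Of 17 genes, 12 could be tested: 9 fell, 1 rose and 2 were not called, with a median log2 fold change of -1.01. The 9 that fell were COX4I1, COX5A, COX5B, COX6A1, COX6B1, COX6C, COX7B, COX7C and COX8A, and 8 of them lay between -1.28 and -0.82. COX5B (ENSG00000135940), a zinc-binding subunit on the matrix side, stood apart from these. It had 22.9, 21.7 and 17.6 CPM with EA, against 109, 103 and 91.4 CPM with DMSO, a log2 fold change of -2.29 (SE 0.10, adjusted p = 3.12e-11). Pseudogenes named after COX5B held 26.9% of the reads of the gene and its copies together with EA, and 0.320% with DMSO. Whether reads of COX5B were assigned to the copies was not tested. COX7C and COX5A fell by 1.28 and 1.05 on the log2 scale. NDUFA4, first described as part of complex I and now assigned to complex IV, fell in the same range, at -1.08.

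COX7A2L (ENSG00000115944), which joins complexes III and IV into supercomplexes, was not called. It had 122, 131 and 99.1 CPM with EA, against 109, 112 and 113 CPM with DMSO. The groups overlapped, with EA replicate 3 the lowest library of all, and the log2 fold change was 0.08 (95% interval -0.10 to 0.25, adjusted p = 0.426). Without EA replicate 3 it was called higher at 0.16 (adjusted p = 0.00999). COX7A2, the form of subunit 7A found in liver and most tissues, was listed at few reads, 3.25 ± 0.62 CPM with EA and 2.46 ± 0.09 CPM with DMSO. It was not called at 0.39 (adjusted p = 0.0760), and was called at 0.48 without EA replicate 3 (adjusted p = 0.0208).

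Isoforms known from other tissues stayed scarce. COX6B2, the testis form of subunit 6B, rose: it had 1.31, 1.38 and 0.634 CPM with EA, against 0.117, 0.261 and 0.157 CPM with DMSO, a log2 fold change of 2.61 (SE 0.45, adjusted p = 6.64e-05). NDUFA4L2, a paralog of NDUFA4 known as a target of hypoxia-inducible factor, rose as well, with 1.12, 1.96 and 0.528 CPM with EA, against 0.311, 0.261 and 0.118 CPM with DMSO. Its log2 fold change was 2.36 (SE 0.52, adjusted p = 0.000821). For both genes the groups did not overlap, and EA replicate 3 was the lowest EA library. Of the exon bases of COX6B2, 30.9% also belong to other genes, chiefly AC020922.1 on the same strand. Per kilobase of exon and with EA, COX6B2 stood at 0.290 CPM and the common form COX6B1 at 38.6 CPM, and NDUFA4L2 at 0.429 CPM and NDUFA4 at 13.3 CPM, so both stayed far below the common form. Between COX6B2 and COX6B1, the log2 ratio within a library averaged -5.07 with EA and -8.76 with DMSO. Between NDUFA4L2 and NDUFA4 it averaged -5.45 with EA and -8.74 with DMSO. In 3 against 3 libraries the smallest p an exact two-sided permutation test allows is 0.1, and both ratios gave that value (0.125 after adjustment over the 5 ratios computed).

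The remaining isoforms could not be tested. COX4I2, which has been tied to low oxygen in other cells, had 8 reads over the EA libraries and 0 over the DMSO libraries, where 0 reads allow up to 0.0405 CPM (3 reads over the group). COX8C had 1 read with EA and 0 with DMSO, and the muscle form COX6A2 and the testis form COX7B2 had 0 reads throughout. COX7A1, the heart and muscle form of subunit 7A, had 32 reads with EA and 22 with DMSO, and its log2 ratio to COX7A2 averaged -2.50 ± 0.63 with EA and -3.25 ± 1.27 with DMSO (exact two-sided permutation p = 0.5).

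**Figure D2:**
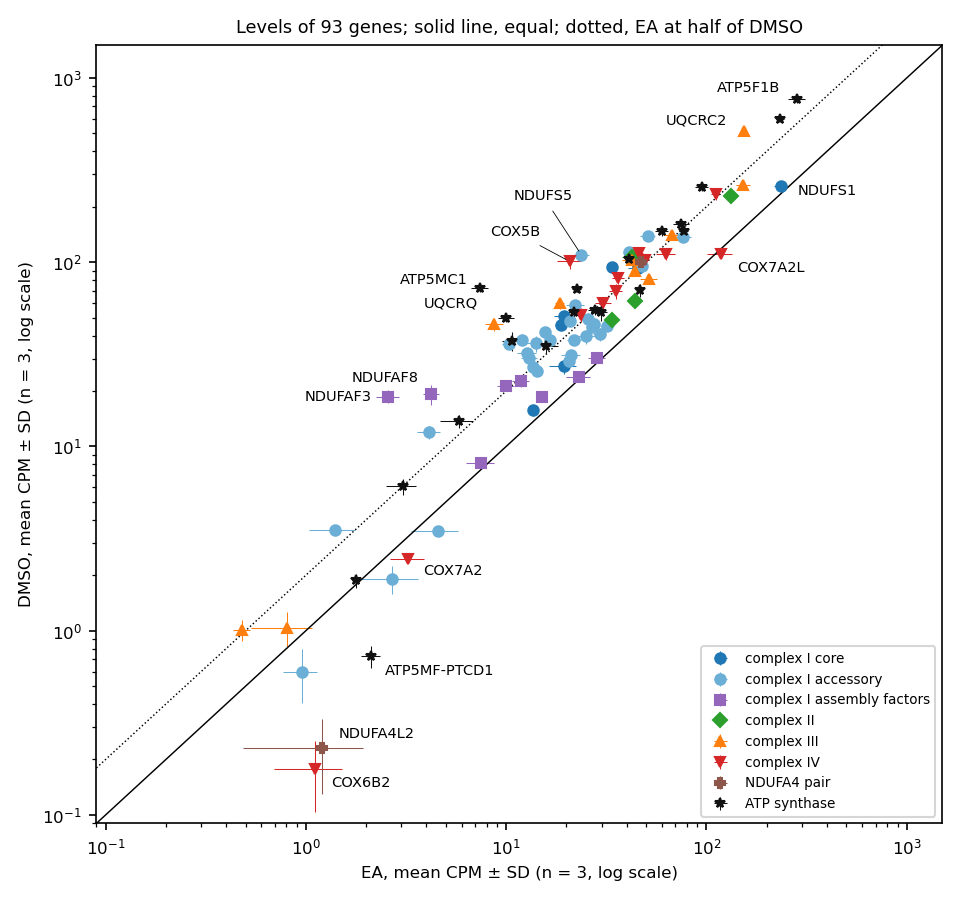
Mean CPM with EA (x axis) against mean CPM with DMSO (y axis) for the 93 tested genes, both on log scales, with the SD over 3 libraries as error bars and symbols by complex. Genes above 10 CPM gather along the dotted line, where the EA level is 50% of the DMSO level; NDUFS1 and COX7A2L lie near the solid line of equal levels, and the other genes below that line, COX6B2, NDUFA4L2 and ATP5MF-PTCD1 among them, all have few reads.

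ATP synthase couples the proton flow through its membrane ring to the making of ATP in its catalytic head. Of its 21 genes, 20 were tested: 18 fell, 1 rose and 1 was not called. The median log2 fold change of -1.27 and the summed level at 39.5% of DMSO were the lowest of the 7 groups with more than 2 genes, although the difference between complexes was not tested. The summed level was 1069 ± 57.2 CPM with EA and 2709 ± 111 CPM with DMSO. The catalytic subunit beta, ATP5F1B (ENSG00000110955), had the highest level per kilobase of all 100 genes. It had 258, 314 and 279 CPM with EA, against 815, 761 and 738 CPM with DMSO, a log2 fold change of -1.44 (SE 0.08, adjusted p = 1.41e-10). Its partner ATP5F1A, subunit alpha, averaged 232 ± 11.2 CPM with EA and 600.1 ± 19.4 CPM with DMSO, so both parts of the head changed by a similar amount. The other subunits of the head, ATP5F1C, ATP5F1D and ATP5F1E, fell by 1.11, 1.16 and 0.94 on the log2 scale.

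All 4 genes of the peripheral stalk, which keeps the head from turning, fell. ATP5PD, ATP5PO, ATP5PB and ATP5PF had log2 fold changes of -1.68, -1.33, -1.30 and -1.29. ATP5IF1 (ENSG00000130770), the inhibitor that stops the enzyme from running backwards and splitting ATP, fell more than any of them. It had 9.15, 10.0 and 10.9 CPM with EA, against 51.3, 50.7 and 47.3 CPM with DMSO, a log2 fold change of -2.31 (SE 0.09, adjusted p = 4.55e-12). Every EA library was below 11 CPM and every DMSO library above 47.

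The genes for subunit c, which forms the ring in the membrane, diverged. ATP5MC1, ATP5MC2 and ATP5MC3 encode the same mature protein with different import sequences. ATP5MC1 (ENSG00000159199) had 7.03, 8.27 and 6.98 CPM with EA, against 70.4, 76.8 and 71.0 CPM with DMSO. This was the deepest fall of the 93 genes, to 10.2% of the DMSO level (log2 fold change -3.29, SE 0.10, adjusted p = 1.35e-13), and 1.82% of all tested genes had a lower value. Pseudogenes named after ATP5MC1 held 20.9% of the reads of the gene and its copies together with EA, and 0.297% with DMSO. Whether reads of ATP5MC1 were assigned to the copies was not tested. ATP5MC2 had 45.1, 47.7 and 46.2 CPM with EA, against 75.2, 72.2 and 63.9 CPM with DMSO, the smallest fall among the called ATP synthase genes at -0.60 (SE 0.08). ATP5MC3 averaged 94.9 ± 7.00 CPM with EA and 254 ± 9.47 CPM with DMSO, a log2 fold change of -1.42.

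As a share of the reads of the 3 genes, ATP5MC1 held 4.99% ± 0.25 with EA and 18.3% ± 0.79 with DMSO (SD, n = 3 each). ATP5MC2 held 31.2% ± 0.99 with EA and 17.7% ± 0.84 with DMSO. The share of ATP5MC3 was 63.8% ± 0.87 with EA and 64.0% ± 0.37 with DMSO, within the spread between libraries. In each EA library the reads of ATP5MC2 outnumbered those of ATP5MC1, whereas in the DMSO libraries both took similar shares. The log2 ratio to ATP5MC3 was -3.67 ± 0.07 with EA and -1.81 ± 0.06 with DMSO for ATP5MC1, and -1.03 ± 0.07 with EA and -1.86 ± 0.07 with DMSO for ATP5MC2. Each gave an exact two-sided permutation p of 0.1, the smallest possible here (0.125 adjusted). A ratio within a library does not depend on how libraries are scaled, and these shares are of reads, with no correction for transcript length.

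**Figure D3:**
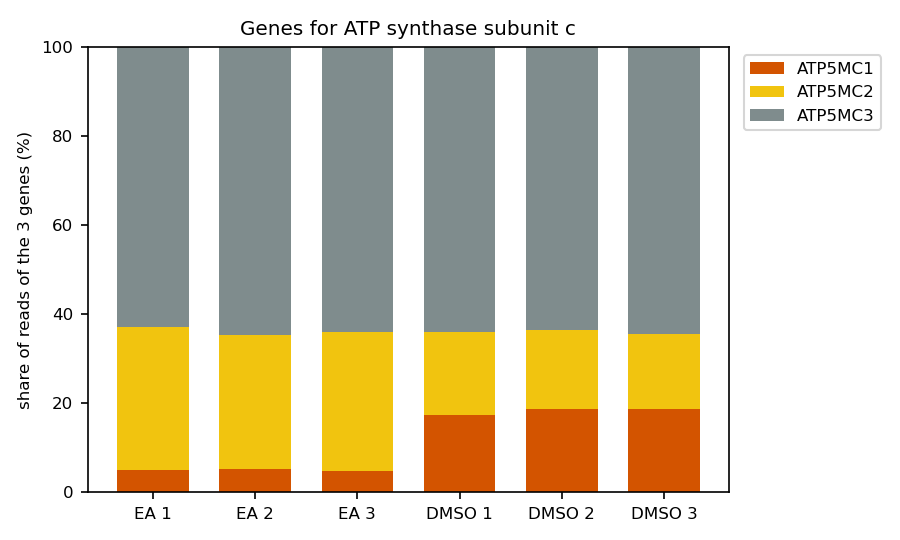
Share of the reads of ATP5MC1, ATP5MC2 and ATP5MC3 taken by each gene in percent (y axis), one stacked bar for each EA and DMSO library. The ATP5MC1 part is 4.73% to 5.22% in the EA bars and 17.4% to 18.8% in the DMSO bars, while the ATP5MC3 part is 62.9% to 64.6% in the EA bars and 63.6% to 64.3% in the DMSO bars.

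Among the small membrane subunits, ATP5ME, subunit e of the dimer interface, fell by 1.80 on the log2 scale, and ATP5MD and ATP5MPL by 1.00 and 0.84. ATP5MF fell by 1.00 from few reads, with 3.04 ± 0.52 CPM with EA and 6.07 ± 0.63 CPM with DMSO. ATP5MG, subunit g, was not called, at 1.78 ± 0.08 CPM with EA and 1.88 ± 0.17 CPM with DMSO. ATP5MF-PTCD1, a read-through transcript, was called higher at a log2 fold change of 1.52 (SE 0.25), with 2.30, 2.172 and 1.85 CPM with EA, against 0.779, 0.609 and 0.786 CPM with DMSO. Its direction is uncertain as a measure of ATP5MF, because 93.8% of its exon bases also belong to other genes, chiefly PTCD1. PTCD1 itself held at most 0.159 CPM in any library. ATP5MGL, with 6 reads with EA and 7 with DMSO, was not tested.

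**Figure D4:**
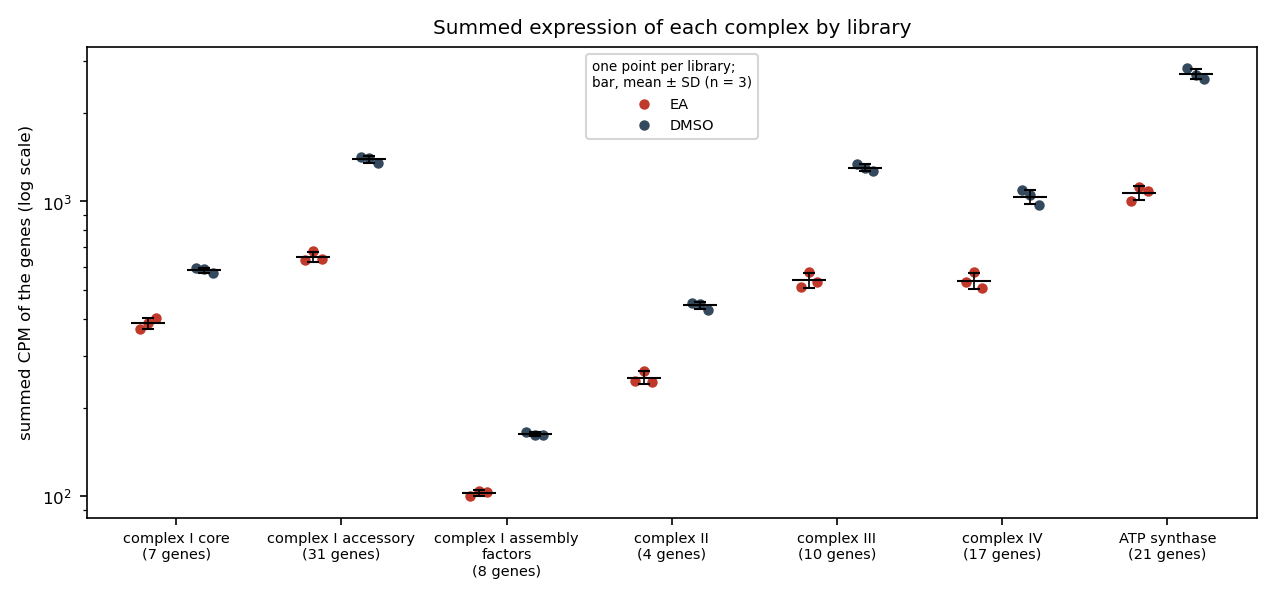
Summed CPM of the genes of each complex on a log scale (y axis), with 1 point per library, EA in red and DMSO in dark blue, and bars for the mean and SD of 3 libraries. In all 7 groups the EA points lie below the DMSO points. The EA mean is lowest relative to DMSO for ATP synthase at 39.5% and highest for the complex I core at 66.0%. The core sum leans on NDUFS1, which was not called. This gene held 235 of 386 CPM with EA and 258 of 585 CPM with DMSO.

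Levels between genes can be compared only per length, here as CPM per kilobase of annotated exon. On this scale ATP5F1B led with 122 per kb with EA and 332 per kb with DMSO. NDUFS5 came next with DMSO, at 43.2 per kb with EA and 201 per kb with DMSO, then COX8A at 69.6 per kb with EA and 137 per kb with DMSO. With EA the order of these 2 was the other way round. Within complex II, SDHA, SDHD and SDHB lay at 15.8, 15.5 and 13.7 per kb with EA and at 27.1, 21.8 and 19.7 per kb with DMSO. SDHC was at 2.98 with EA and 7.504 with DMSO. The length counts all annotated exons, which is 14160 bases for SDHC, 8383 for SDHA, 2838 for SDHD and 2462 for SDHB. Before division by length, SDHC, SDHD and SDHB had 42.3, 44.0 and 33.8 CPM with EA and 106, 61.8 and 48.4 CPM with DMSO. The low value of SDHC per kb thus rests on its annotated length. COX7A2, at 1.69 per kb with EA and 1.28 with DMSO, was far below other complex IV subunits that are present once in each enzyme, such as COX5A at 35.1 with EA and 72.6 with DMSO. Why some common subunits were listed at so few reads was not tested.

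The size of the change was also set beside gene properties. Across the 80 genes with at least 10 CPM in DMSO, the log2 fold change had a Pearson r of -0.06 with the log2 level in DMSO. It had an r of 0.24 with the log2 length of the longest transcript and -0.40 with GC content. Over all 93 tested genes these values were -0.61, 0.13 and -0.01, so those for level and GC content depend on the cut. The DMSO level is also the base of the fold change. These are descriptions across genes read from the same 6 libraries, and genes are not independent replicates. The members were short, with a median longest transcript of 1510.5 bases against 3193 bases over all tested genes. Members under 2000 bases and members of 2000 bases or more had the same median of -1.05, whereas all tested genes had medians of -0.12 and 0.04 in these classes. After correction for GC content and length, the median was -1.08 over all members and -1.25 for the accessory subunits. NDUFS1 was then called lower, at -0.62.

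Promoters of respiratory genes are known for binding sites of the factors NRF1, GABP (an ETS factor) and YY1, and often lack a TATA box. RefSeq promoters on GRCh38.p14, from 250 bases before to 50 bases after the gene start, were found for 78 of the 100 genes and searched on both strands. The NRF1 motif GCGCANGC was present in 31 promoters (39.7%, against 12.5% of 27305 promoters), the ETS motif CCGGAAG in 21 (26.9%, against 10.7%), and the YY1 motif AAGATGGCG in 8 (10.3%, against 1.85%). TATAAA was present in 7 (8.97%, against 11.95%). In none of the 78 promoters did matches of 2 motifs overlap. At least 1 of the first 3 motifs was found in 57.7% of the members and 21.9% of all promoters. The 27305 promoters are not limited to expressed genes, and median promoter GC content was 61.0% for the members and 58.3% for all. Tested members with an NRF1 match had a median log2 fold change of -0.78 and those without one of -1.202. For the ETS motif these values were -1.07 and -0.94, for YY1 -0.76 and -1.06, and for TATAAA -1.24 and -0.99. A match is a run of letters and not a measured binding site.

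Sequences are printed for 5 genes that mark the range of changes: ATP5MC1 and ATP5MC2, which encode the same protein and changed to different extents, COX5B and SDHB, a large and a small fall, and COX7A2L, which was not called. Capitals mark matches to the NRF1, ETS or YY1 motif on either strand, and positions count from 1 at the gene start, with negative numbers before it.
ATP5MC1, chr17:48892537-48892836 (plus strand): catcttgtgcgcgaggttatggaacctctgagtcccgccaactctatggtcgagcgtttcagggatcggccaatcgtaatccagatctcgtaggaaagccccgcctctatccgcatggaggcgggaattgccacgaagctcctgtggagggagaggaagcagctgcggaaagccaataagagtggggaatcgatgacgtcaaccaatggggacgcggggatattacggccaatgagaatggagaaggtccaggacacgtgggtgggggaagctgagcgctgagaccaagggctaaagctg
ATP5MC2, chr12:53676034-53676333 (minus strand): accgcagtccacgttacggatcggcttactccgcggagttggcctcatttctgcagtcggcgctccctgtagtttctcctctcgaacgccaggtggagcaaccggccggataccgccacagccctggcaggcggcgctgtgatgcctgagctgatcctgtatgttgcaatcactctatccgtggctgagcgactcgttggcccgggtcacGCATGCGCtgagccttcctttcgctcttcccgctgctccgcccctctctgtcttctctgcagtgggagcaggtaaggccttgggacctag
COX5B, chr2:97645812-97646111 (plus strand): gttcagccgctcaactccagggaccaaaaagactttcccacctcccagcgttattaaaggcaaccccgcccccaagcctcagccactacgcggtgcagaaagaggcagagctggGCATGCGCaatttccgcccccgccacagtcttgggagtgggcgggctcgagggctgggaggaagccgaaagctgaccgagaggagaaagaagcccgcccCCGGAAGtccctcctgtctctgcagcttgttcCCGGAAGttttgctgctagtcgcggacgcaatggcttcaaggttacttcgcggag
SDHB, chr1:17053983-17054282 (minus strand): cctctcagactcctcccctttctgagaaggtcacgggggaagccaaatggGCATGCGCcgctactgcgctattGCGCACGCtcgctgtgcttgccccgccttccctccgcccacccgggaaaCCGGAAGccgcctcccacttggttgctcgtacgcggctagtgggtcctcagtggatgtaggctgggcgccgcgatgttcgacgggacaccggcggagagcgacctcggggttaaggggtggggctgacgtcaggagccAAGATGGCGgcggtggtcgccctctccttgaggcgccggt
COX7A2L, chr2:42361168-42361467 (minus strand): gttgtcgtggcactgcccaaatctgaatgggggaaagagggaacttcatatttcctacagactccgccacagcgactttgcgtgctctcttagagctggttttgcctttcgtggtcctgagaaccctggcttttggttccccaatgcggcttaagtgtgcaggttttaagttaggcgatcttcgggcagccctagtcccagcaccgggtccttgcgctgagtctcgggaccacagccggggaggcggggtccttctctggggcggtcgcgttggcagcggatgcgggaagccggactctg
ATP5MC1, which fell by 3.29 on the log2 scale, and COX7A2L, which was not called, both lack all of these letters in this window. ATP5MC2 has 1 NRF1 match at -40. COX5B, at -2.29, has an NRF1 match at -136 and ETS matches at -37 and -5. SDHB, at -0.52, has NRF1 matches at -200 and -177, an ETS match at -128 and a YY1 match at 11. ATP5MC1 and COX7A2L had the lowest and the highest log2 fold change of these 5, and the genes with matches lay between them. The 5 were chosen by their values, and a link between matches and change was not tested.

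Other genes that the respiratory chain depends on were mostly lower as well, where 40.5% of all tested genes were called lower and 40.5% higher. Of 11 genes for the synthesis of ubiquinone, the carrier between complexes I to III, 10 fell and 1 rose. COQ9 and COQ7, which act together in a late step, had log2 fold changes of -1.39 and -1.27, and COQ8B rose to 23.2 ± 1.89 CPM with EA, against 11.7 ± 1.29 CPM with DMSO. CYCS, the carrier cytochrome c, fell by 0.67 on the log2 scale. Of 21 tested assembly factors of complex IV, 17 fell, among them COA3 at -2.37 and COA4 at -1.51, and COX10, which makes the haem precursor of the enzyme, rose by 0.87 on the log2 scale.

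Assembly factors of the other complexes were mostly lower too. The lists here are short, and their shares were not tested against the 40.5% of all tested genes called lower. Of 10 further complex I factors 8 fell, led by NUBPL at -1.63 and ACAD9 at -1.58, and COA1 rose by 0.40 on the log2 scale. Of 6 complex III factors 5 fell, led by UQCC2 at -1.74 and UQCC3 at -1.47, and TTC19 rose by 0.35. For complex II 3 of 4 fell, among them SDHAF4 at -0.70 and SDHAF3 at -0.39. For ATP synthase FMC1 and ATPAF2 fell, by 1.85 and 0.35 on the log2 scale, and TMEM70 was not called at 0.18. The carriers that move ADP, ATP and phosphate across the inner membrane all fell where they could be tested, with SLC25A5 at -1.05, SLC25A4 at -0.82 and SLC25A3 at -0.72. Of 5 tested genes that feed other electrons to ubiquinone, 3 fell, including ETFA at -0.73 and DHODH at -0.78, and SQOR rose by 0.42.

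Of 7 genes for the expression of mitochondrial DNA, 3 fell, a share close to the 40.5% of all tested genes called lower. These were TFB1M, a ribosomal RNA methyltransferase, at -1.58, and POLRMT and TFAM, the polymerase and its packaging partner, at -0.28 and -0.24. The other 4 were not called. All 37 genes of mitochondrial DNA were listed at 0 reads in all 6 libraries, so the mitochondrially encoded subunits could not be compared.

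The list of 9 transcriptional regulators holds factors that drive respiratory genes and HIF1A, a factor of the response to low oxygen, and its genes split in direction. PPARGC1A, the coactivator of mitochondrial biogenesis, had 6.85, 5.40 and 6.66 CPM with EA, against 50.5, 54.2 and 55.5 CPM with DMSO, a log2 fold change of -3.09 (SE 0.10). The groups were far apart. HIF1A had 221, 215 and 274 CPM with EA, against 278, 268 and 289 CPM with DMSO, and was called lower at -0.23 (adjusted p = 0.0220). EA replicate 3 lay inside the DMSO range, and without it the log2 fold change was -0.38 (adjusted p = 1.13e-09). GABPB1 was not called. The other 6 rose: ESRRA and PPARGC1B by 0.57 each, PPRC1 by 0.36, YY1 by 0.32, GABPA by 0.30 and NRF1 by 0.22. Among all tested genes, 40.5% were called higher. ESRRA, an orphan nuclear receptor that works with PPARGC1A, averaged 61.1 ± 3.11 CPM with EA and 41.3 ± 1.76 CPM with DMSO.

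**Figure D5:**
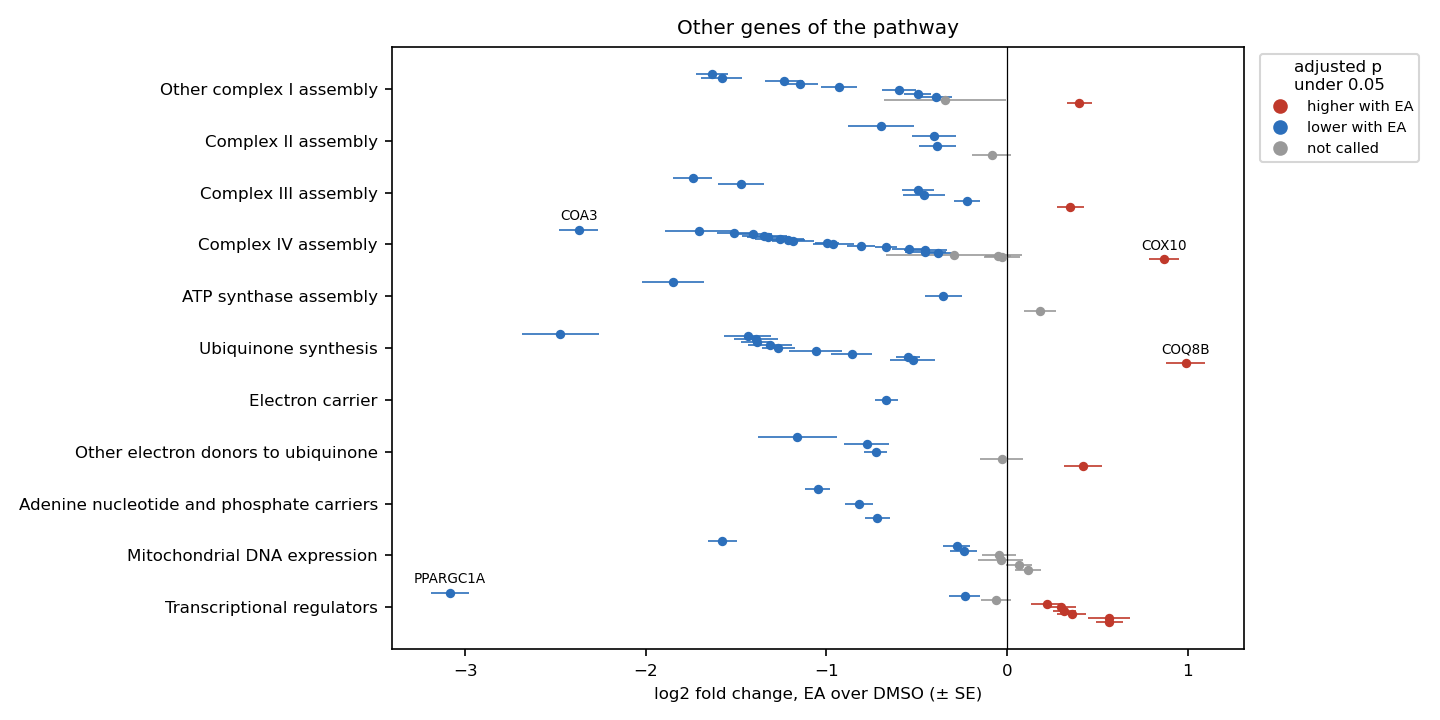
Log2 fold change of EA over DMSO (x axis) with its SE for tested genes outside the members, grouped by role; blue marks genes called lower, red higher and grey not called. Most assembly, ubiquinone and carrier genes lie left of 0, PPARGC1A is farthest left at -3.09, and 6 of the 9 transcriptional regulators lie to the right of 0.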

How the data were processed

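TRIzol was used for total RNA, per the labels' protocols, RNA with an integrity number above 7 went into NEBNext Ultra libraries, and HiSeq runs gave paired reads. The submitters' processing notes name the hg19 build and HTSeq 0.6.1, HISAT, cutadapt 1.9.1 and bcl2fastq 2.17.1.14. Neither the HISAT version nor the annotation nor the strand setting is stated there, and overlapping and antisense genes may share reads. Raw read counts per gene, whole numbers without normalisation, are what the authors deposited.

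Genes with low counts were removed by filterByExpr (15648 left), and libraries were scaled by TMM and compared with the quasi-likelihood F test of edgeR 4.0.16 in R 4.3.3, with Benjamini-Hochberg adjustment over all tested genes and a threshold of 0.05. CPM use TMM-scaled library sizes, and SDs are over 3 libraries. The labels do not say that libraries are separate cultures, so the spread behind each p-value may be technical. The common biological coefficient of variation was 7.96%. On simulated counts for this comparison with 15648 genes, the test found 35 of 50 genes set to a change of 1.5-fold, 45 at 2-fold, 49 at 4-fold and 50 at 8-fold, with 14 false calls. Only these sets of 50 genes were changed, up and down alike. All genes had the same coefficient of variation of 0.08, and no library was set apart. In the data 81.0% of tested genes were called and EA replicate 3 stood apart, so these numbers may not carry over. Isoform ratios add 0.5 reads to each count. Floors reflect counting error alone, because reads lack molecular identifiers.

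Transcript length, GC content and exon overlap were taken from GENCODE 29 (GRCh38, not the hg19 of the counts), and promoters from RefSeq on GRCh38.p14. The group of genes, its symbol rule and the other gene lists were chosen with earlier results of these data known. Genes were named by a rule: in each complex the 3 called genes with the smallest p, the largest fall and rise, every gene called higher or not called, all SDH genes, isoform pairs with at least 10 reads, untested members, and in each other list up to 2 genes with the smallest p and those against the majority; further members were named after their values were seen. One member enters the counts, medians and sums, and is not reported by itself here. Alternatives were DESeq2 1.42.0, limma-voom (limma 3.58.1), scaling by RLE, by upper quartile or by library size alone, no filter, a filter of 1 CPM in 3 libraries, thinning to 15738089 reads, a GC and length correction, a replicate block, an adjusted p of 0.01, a minimum fold of 1.2, another prior count for ratios, and each library left out in turn.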

Additional observations from a re-analysis of the deposited data

How the results depend on the processing

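Across 19 settings there were 1761 log2 fold changes of single members: 1731 kept their direction and their side of the threshold, 6 lost their call, 16 gained one and 8 changed sign. These 8 belonged to 5 members near 0 that were called neither in the reported fit nor in that setting. With thinned counts NDUFAF1 stood at 0.0312, NDUFAF5 at 0.0397 and ATP5MG at 0.0053. NDUFAF7 stood at 0.0744 with the GC and length correction and at 0.0713 with the replicate block added, and COX7A2L at -0.0543 without a filter. Leaving out each library in turn gave -0.1616 to 0.0442 for NDUFAF5 and -0.0197 to 0.1627 for COX7A2L; both changed sign without EA replicate 2. Members called lower numbered 76 to 81, and 18 ATP synthase, 27 complex I accessory, 9 complex IV and 4 complex II genes were called lower in every setting. Medians below are over the members tested in each setting. The median of all members was -1.01 with RLE scaling and with DESeq2. Without a filter it was -1.14, and the medians by complex were -1.17 for the complex I core, -1.13 for accessory subunits, -0.74 for assembly factors, -0.78 for complex II, -1.195 for complex III, -1.11 for complex IV and -1.38 for ATP synthase. That setting also moved the median of all genes by -0.13, and relative to this the 93 members stood at -1.05. After the GC and length correction the medians were -1.08 for all members, -0.78 for the core and -1.25 for accessory subunits.

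The 3 members called higher in the reported fit rested on few reads. COX7A2L, at 118 CPM with EA and 111 CPM with DMSO, was not among them. It was called higher without EA replicate 3, and with the replicate block together with the GC and length correction. With a filter of 1 CPM in 3 libraries, 1 member called higher was left, with 0 in complex IV and 0 in the NDUFA4 pair. Complex IV had 2 without a filter. With thinned counts 1 accessory subunit was called higher and 0 of the NDUFA4 pair, and with the GC and length correction 1 accessory subunit was. Leaving out each library in turn gave 3 to 9 members called higher (0 to 3 accessory, 1 to 4 complex IV), and medians of -1.09 to -1.03 for all members, -1.06 to -1.003 for accessory subunits and -1.16 to -1.02 for complex III. The 9 came without EA replicate 3, where 13613 genes were called instead of 12680.

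The labels do not say whether replicate numbers pair the libraries. Deviations of same-numbered EA and DMSO libraries correlated at -0.08, 0.03 and -0.02, and those of differently numbered ones at -0.05 to 0.07. With 3 libraries per group these values cannot show whether libraries were prepared in pairs. With the replicate block 12537 genes were called, 78 members were lower and 3 higher, and the members' median stayed at -1.05. The replicate block together with the GC and length correction gave 5 members called higher (1 accessory, 2 complex IV) and medians of -1.08 for all members, -0.78 for the core and -1.25 for accessory subunits. The cause of these shifts was not tested. Depth limits the genes under 10 CPM, where a few reads decide the value.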

Other observations

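The table lists 163 pseudogenes named after 47 of the members. They summed to 71.4 ± 4.65 CPM with EA and 60.8 ± 1.82 CPM with DMSO (SD, n = 3 each), of which the 3 copies of SDHA held 51.99 ± 2.33 CPM with EA and 50.3 ± 0.80 CPM with DMSO. The other 160 summed to 19.4 ± 2.68 CPM with EA and 10.5 ± 1.03 CPM with DMSO. The members' own reads were fewer with EA, whereas the pseudogenes' summed level was higher. Of the reads of members and pseudogenes together, pseudogenes held 1.94% with EA and 0.779% with DMSO. COX5BP2, a copy of COX5B, had 9.34, 7.31 and 6.34 CPM with EA, against 0.078, 0.087 and 0.118 CPM with DMSO, a log2 fold change of 6.25 (SE 0.31, adjusted p = 5.35e-11), while COX5B itself fell. All of its exon bases also lie within a longer transcript on the same strand (AL138828.1). ATP5MC1P4, a copy of ATP5MC1, had 1.37, 1.48 and 2.167 CPM with EA, against 0.117, 0.348 and 0.118 CPM with DMSO, a log2 fold change of 3.11 (SE 0.41). The EA and DMSO libraries did not overlap for either copy. Others moved the opposite way or little: UQCRFS1P1 fell by 1.75 and SDHAP3 by 0.98 on the log2 scale, and SDHAP1 rose by 0.51. Whether reads of a member were assigned to its copies was not tested.

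KCTD14, the neighbour of NDUFC2 in the read-through gene, averaged 4.32 ± 0.58 CPM with EA and 17.5 ± 0.37 CPM with DMSO.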
